A study of Mus musculus with 8 samples.

Results

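The 10 genes described here are immediate early genes, transcribed within minutes of a stimulus without new protein synthesis. They were chosen by symbol, as Fos, Fosb, Jun, Junb, Egr1, Ier2, Atf3, Zfp36, Dusp1 and Socs3, out of 31053 genes in the deposited count tables, and all 10 were found. Their levels were followed in single cells of mouse parietal bone, through 3 groups of osteoblasts (OBs) and in all other cells, and were compared between 2 genotypes.

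Fos, Fosb, Jun and Junb encode subunits of the dimeric transcription factor AP-1, and Atf3 encodes a related leucine zipper protein that pairs with Jun proteins. Egr1 encodes a zinc finger transcription factor that is induced through serum response factor, and Ier2 encodes a small nuclear protein induced together with it. Zfp36, Dusp1 and Socs3 are feedback genes: their products promote the decay of AU-rich mRNAs, dephosphorylate MAP kinases and inhibit cytokine signaling through the JAK-STAT pathway. In bone, AP-1 proteins take part in osteoblast and osteoclast differentiation, and the same genes are known to be induced in many tissues while cells are released by enzymes.

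Parietal bone cells came from C57BL/6J-background mice of the strain B6.129(FVB)-Col1a2tm1Mcbr/J at P4-5, and were either wild type (WT) or heterozygous (Het) for a germline substitution of cysteine for glycine in the triple helix of the collagen α2(I) chain, a model of osteogenesis imperfecta. Each genotype had 4 libraries, 2 made with version 3 of the 10x Genomics 3′ kit (WT S1 and S2, Het S3 and S4) and 2 with version 3.1 (WT S5 and S6, Het S7 and S8). A library pooled cells from up to 5 animals of 1 genotype, so that differences between single animals cannot be seen. The allele is present in every cell of a Het animal.

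The 8 libraries held between 30480239 and 85162035 unique molecular identifiers (UMIs), and 46420 of 68625 barcodes had at least 500 genes and under 10% mitochondrial UMIs. Any pair of libraries shared 2 to 61 barcodes, at most 0.663% of the smaller library. OBs were cells in which Col1a1 had 10 UMIs or more and 2 or more of the genes Runx2, Sp7 and Ibsp had 2 UMIs or more each, which left 2671 OBs and 43749 other cells. By the share of Col1a1 in its UMIs, an OB was early (eOB, under 0.75%, 379 cells), differentiating (dOB, 0.75 to 3.5%, 1217 cells) or mature (mOB, over 3.5%, 1075 cells). Of 5 OB markers that took no part in the selection (Bglap, Dmp1, Ifitm5, Alpl and Spp1), all 5 were detected in each group, and together they made up 0.624 to 4.13% of UMIs in eOBs, 0.465 to 3.88% in dOBs and 1.14 to 4.67% in mOBs across the libraries. The kit version and the Cell Ranger version changed together between S4 and S5, and the labels do not say whether animals, cell isolations or sequencing runs also differed between the 2 sets, so these cannot be told apart.

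A level is given below as the percentage of a group's UMIs in 1 library that came from the gene (%UMI), summed over the cells of that group. These are 3′ counts, so levels are compared for 1 gene between groups and not between genes. In such sums, fewer cells carrying a transcript and less RNA per cell cannot be told apart.

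Start site regions from RefSeq in the GRCm38.p6 build were used for 8 of the 10 genes. The 250 bases upstream of the start are shown for Fos, the member whose level differed between the genotypes in mOBs, and for Jun, its partner in AP-1, whose level differed between mOBs and eOBs. The Fos gene lies at chr12:85473890-85477273 on the plus strand and the Jun gene at chr4:95049034-95052222 on the minus strand. Capitals mark the TATA box motif.
Fos, chr12:85473640-85473889, plus strand: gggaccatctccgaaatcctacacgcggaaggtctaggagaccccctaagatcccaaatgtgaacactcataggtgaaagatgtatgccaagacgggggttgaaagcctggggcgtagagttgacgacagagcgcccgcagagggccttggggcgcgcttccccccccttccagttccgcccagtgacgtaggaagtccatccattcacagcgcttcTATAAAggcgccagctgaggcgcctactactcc
Jun, chr4:95052223-95052472, minus strand, with no capitals because none of the searched motifs matched: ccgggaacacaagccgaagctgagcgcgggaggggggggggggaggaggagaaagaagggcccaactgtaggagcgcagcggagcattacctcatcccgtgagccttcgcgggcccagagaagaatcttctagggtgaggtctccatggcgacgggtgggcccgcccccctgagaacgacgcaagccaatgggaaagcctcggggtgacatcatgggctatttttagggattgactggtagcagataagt

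Each region of 300 bases, which adds 50 bases after the start, was searched on both strands for 6 motifs. The cAMP response element TGACGTCA was in 1.79% of 32851 mouse promoters of this length and in 1 member, Dusp1, at position -143 from the start. The AP-1 motif TGANTCA was in 7.81% of promoters and in 0 members. The CArG box, bound by serum response factor, was in 1.63% of promoters and in Zfp36, as CCATAAAAGG at -58. The STAT motif TTCNNNGAA was in 8.30% of promoters, in Socs3 as TTCTTAGAA at -154 and in Zfp36 as TTCTGCGAA at -17. The EGR motif GCGNGGGCG was in 5.55% of promoters and in 3 members, Fosb, Socs3 and Zfp36. TATAAA was in 13.6% of promoters, in Fos at -33 and in Junb. A match describes these letters only, and no factor binding was measured.

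The 10 genes together made up 0.0247 to 0.0964% of UMIs in mOBs (median 0.0540%, n = 8 libraries), 0.0423 to 0.131% in dOBs (median 0.0724%) and 0.0808 to 0.529% in eOBs (median 0.198%). Among the other cells, groups were set by markers of their class. Chondrocyte-like cells had the highest median (0.512%, range 0.0986 to 1.07%), followed by haematopoietic-like cells (0.275%, range 0.246 to 0.426%). Smooth muscle- or pericyte-like cells (0.101%, range 0.0634 to 0.116%) and endothelial-like cells (0.0868%, range 0.0813 to 0.141%) came between eOBs and dOBs. Fibroblast-like cells (0.0564%, range 0.0391 to 0.0661%) came between dOBs and mOBs, and erythroid-like cells had the lowest median over both kits (0.0357%, range 0.0168 to 0.110%, n = 7 libraries, since S8 held fewer than 10 such cells). In this order of 9 groups the ranges of neighbours overlapped throughout. The order depended on the kit version at the top, in the middle, among the OBs and at the bottom. Smooth muscle- or pericyte-like cells averaged just above endothelial-like cells with kit 3 (0.0967 and 0.0951%) and just below them with kit 3.1 (0.0935 and 0.0992%). Haematopoietic-like cells averaged 0.279% and chondrocyte-like cells 0.206% with kit 3, against 0.331% and 0.946% with kit 3.1, where eOBs (0.410%) also lay above haematopoietic-like cells. With kit 3 the mean of mOBs (0.0733%) was above those of fibroblast-like cells (0.0605%) and dOBs (0.0557%), so the order of eOBs, dOBs and mOBs by the pooled medians held with kit 3.1 only. Erythroid-like cells were last with kit 3 (0.0280%), but with kit 3.1 they averaged 0.0749% (n = 3), above fibroblast-like cells (0.0514%) and mOBs (0.0423%).

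**Figure D1:**
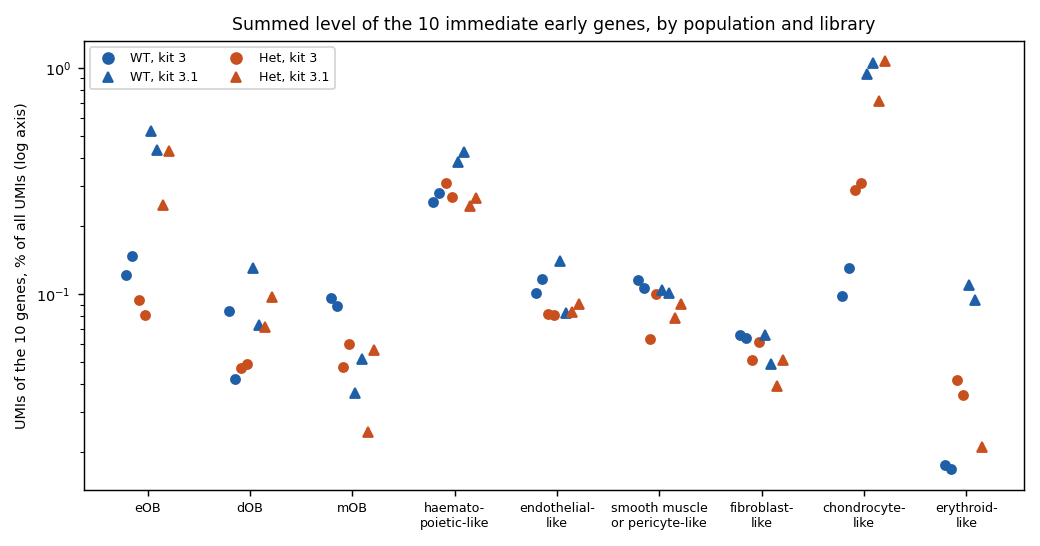
Summed level of the 10 immediate early genes (% of UMIs) in each cell group, with 1 point per library, coloured by genotype and shaped by kit version. Chondrocyte-like cells and eOBs of kit 3.1 libraries sit far above those of kit 3 libraries, whereas mOBs of kit 3.1 libraries sit lower on average. With cells carrying cartilage markers left out, eOBs average 0.101% and 0.105% with the 2 kits.

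The levels differed between the 2 kit versions in a way that depended on the cell group. In eOBs the summed level averaged 0.111% in the 4 kit 3 libraries and 0.410% in the 4 kit 3.1 libraries, a ratio of 3.70, and the ranges did not overlap. With cells carrying cartilage markers left out, a setting chosen after the data were seen, the eOB means were 0.101% (range 0.0574 to 0.147%) and 0.105% (range 0.0763 to 0.139%), so the gap between the kits was no longer seen in eOBs. Chondrocyte-like cells averaged 0.206% and 0.946%, a ratio of 4.58, also without overlap. In mOBs the order was the other way round, with 0.0733% for kit 3 and 0.0423% for kit 3.1, a ratio of 0.576, and the ranges overlapped. Endothelial-like cells differed little, with a ratio of 1.04. The kit version was a term in every comparison of the genotypes.

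The first comparison followed the genes along OB maturation, from eOBs to mOBs of the same library. In the fit across 9217 genes with the library as a block, 3 of the 9 members tested were lower in mOBs than in eOBs at an adjusted p under 0.05 (edgeR quasi-likelihood test with Benjamini-Hochberg adjustment), and 0 were higher. Of all genes tested, 12.7% were called lower and 14.8% higher. The 3 were the feedback genes Socs3 and Dusp1 and the AP-1 gene Jun. The remaining 6 had log2 fold changes between -1.76 and -1.32, and Atf3 had too few counts to be tested. The median over the 9 was -1.55, beside -0.03 over all genes tested.

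Socs3 (chr11:117966079-117970047, minus strand), the inhibitor of JAK-STAT signaling, had eOB levels in S1 to S8 of 0.0115, 0.0184, 0.00455, 0.00637, 0.0162, 0.0163, 0.00921 and 0.00863%. In mOBs its levels were 0.00180, 0.00188, 0.00120, 0.00143, 0.000945, 0.000957, 0.000780 and 0.00150%. Every mOB value was below every eOB value, an order that held for 4.56% of all genes tested and for none of the other 8 members tested. The log2 fold change of Socs3 was -2.79 (SE 0.28, adjusted p = 1.87e-05), and with any 1 library left out its adjusted p did not exceed 0.000141.

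Dusp1 (chr17:26505590-26562128, minus strand), the MAP kinase phosphatase, had 0.00162, 0.00374, 0.00124 and 0.00343% in eOBs of S1 to S4 and 0.0166, 0.0163, 0.00653 and 0.0203% in those of S5 to S8. Its mOB levels were 0.00132, 0.000723, 0.000799, 0.00161, 0.00101, 0.00106, 0.00125 and 0.00527%. The mOB level was the lower of the pair in 8 of 8 libraries, although the S8 mOBs exceeded the eOBs of all 4 kit 3 libraries. The log2 fold change of Dusp1 was -2.08 (SE 0.50, adjusted p = 0.0158).

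Jun had 0.0168, 0.00934, 0.0286, 0.0171, 0.107, 0.0720, 0.0599 and 0.0646% in eOBs of S1 to S8. In mOBs it had 0.00990, 0.00825, 0.00426, 0.00606, 0.00569, 0.00782, 0.00582 and 0.00797%. The mOB level of Jun was the lower of the pair in 8 of 8 libraries, with a log2 fold change of -2.05 (SE 0.55, adjusted p = 0.0278), and only the eOBs of S2 came down to the mOB range. The call on Jun did not hold without S3 (adjusted p = 0.0587), S5 (0.0547), S6 (0.0743), S7 (0.0706) or S8 (0.0655), with no filter on low counts (0.0539) or with the stricter OB selection (0.0797).

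Junb and Ier2 were also lower in mOBs in 8 of 8 libraries, with log2 fold changes of -1.76 (SE 0.56, adjusted p = 0.0516) and -1.55 (SE 0.57, adjusted p = 0.0844). With Socs3, Dusp1 and Jun, these were 5 of 9 members lower in all 8 libraries, beside 25.2% of all genes tested. Egr1 was lower in 7 of 8, Fos and Atf3 in 6 of 8, Fosb in 5 of 8 and Zfp36 in 4 of 8. The libraries that went the other way were all of kit 3: there, Fos was lower in mOBs in 2 of 4 libraries and Zfp36 in 0 of 4, while in kit 3.1 libraries each of the 10 genes was lower in 4 of 4. The share of all genes so ordered in the kit 3.1 libraries was not computed. Some orders rested on few UMIs: in eOBs, Zfp36 had 2 in S3 and 3 in S4, and Atf3 had 0 in S2 and S3 and 1 in S4. Zfp36 in S2 was nearly level, at 0.00436% in eOBs and 0.00441% in mOBs. Fos averaged 0.0215% in eOBs and 0.0223% in mOBs of kit 3 libraries, against 0.122% and 0.0121% in kit 3.1 libraries.

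**Figure D2:**
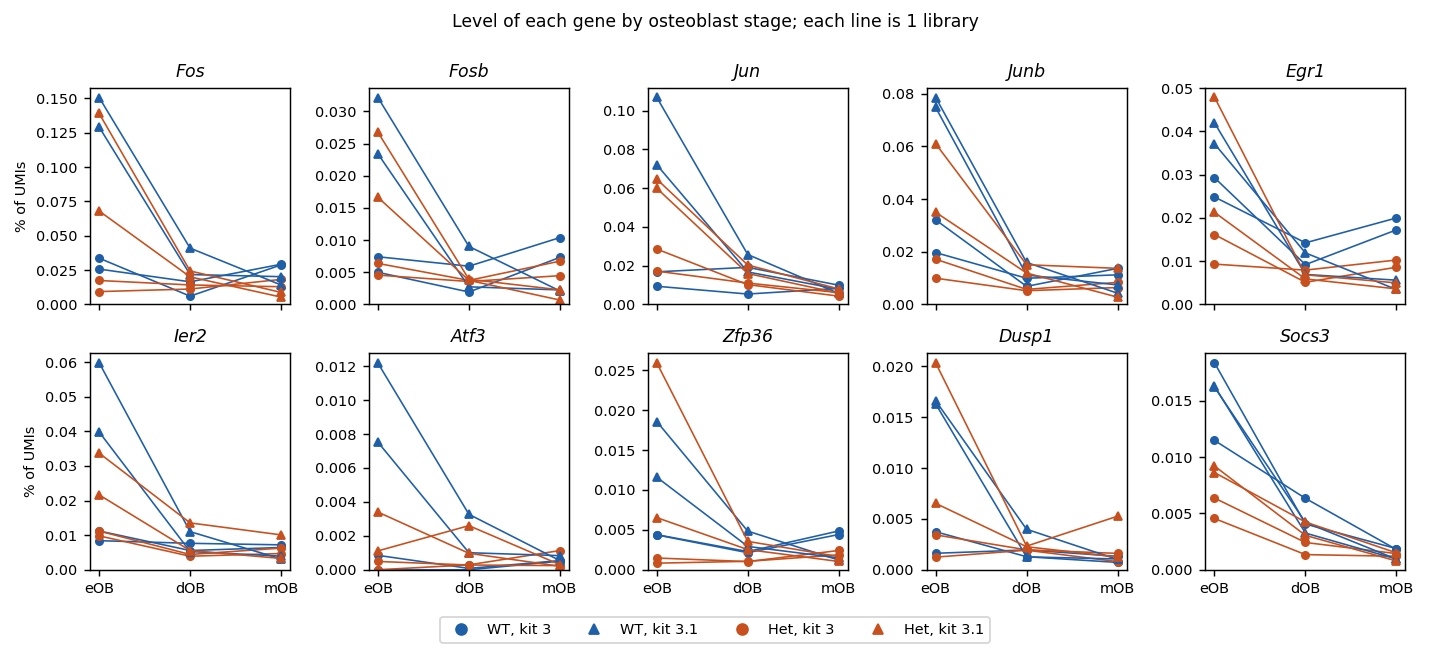
Level of each of the 10 genes (% of UMIs, linear axis, its own scale per gene) in eOBs, dOBs and mOBs, with 1 line per library. Socs3 drops from eOBs to mOBs in all 8 libraries, while Fos, Fosb and Zfp36 drop steeply in the kit 3.1 libraries but are lower in mOBs in only 2, 1 and 0 of the 4 kit 3 libraries. The eOB values of Zfp36 in S3 and S4 rest on 2 and 3 UMIs.

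Cells with cartilage markers moved with this stage difference. Of the eOBs, 1.23% in S1, 0% in S2 (0 of 23 cells), 13.6% in S3 and 8.70% in S4 had at least 3 of 8 chondrocyte markers at 10 or more UMIs each, against 53.7, 34.0, 15.5 and 22.2% in S5 to S8. Of the mOBs, 0 to 7.14% did. Of the 8 markers, 7 were detected in eOBs. The symbol Snorc gave no counts, which would also be so if the count tables named this gene otherwise. The summed marker level ranged from 0.00249 to 0.283% in eOBs of kit 3 and from 0.948 to 2.43% in those of kit 3.1. With these cells left out, 5 members were called lower in mOBs, beside 13.2% of all genes tested: Socs3 (-1.99), Dusp1 (-1.89), Jun (-0.89), Junb (-0.81) and Ier2 (-0.76). Fos then had a log2 fold change of -0.17 (SE 0.47) and the median over the 9 was -0.76. In the kit 3.1 libraries, Fos and Fosb were then lower in mOBs in 3 of 4 and each other member in 4 of 4.

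The second comparison set all OBs against all other cells of the same library. The summed level of the 10 genes had a median of 0.0908% in OBs and 0.356% in other cells. Chondrocyte-like (0.512%), haematopoietic-like (0.275%) and smooth muscle- or pericyte-like cells (0.101%) had higher medians than OBs. Endothelial-like (0.0868%), fibroblast-like (0.0564%) and erythroid-like cells (0.0357%) had lower ones. OBs were tested against the mix of other cells and not against each class. In the fit across 14291 genes, 7 of 10 members were lower in OBs and 0 higher, beside 20.7% of all genes called lower and 14.7% higher, with a median of -1.84 over the 10 and -0.04 over all genes tested. They were Atf3 (-2.63, SE 0.39), Dusp1 (-2.49, SE 0.20), Ier2 (-2.12, SE 0.28), Jun (-1.92, SE 0.37), Zfp36 (-1.85, SE 0.24), Junb (-1.83, SE 0.30) and Fos (-1.74, SE 0.34), with adjusted p-values from 1.54e-05 for Dusp1 to 0.00315 for Fos.

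For Fos, the OB levels in S1 to S8 were 0.0244, 0.0246, 0.0137, 0.0159, 0.0427, 0.0298, 0.0240 and 0.0367%, and those of other cells were 0.0430, 0.0325, 0.0382, 0.0364, 0.193, 0.233, 0.158 and 0.268%. The OB level was the lower of the pair in every library, by a wider margin in S5 to S8. This order in 8 of 8 libraries held for 6 of 10 members (Fos, Junb, Ier2, Atf3, Zfp36 and Dusp1), beside 19.4% of all genes tested. Fosb (-1.49, SE 0.54, adjusted p = 0.0556), Egr1 (-1.06, SE 0.54, adjusted p = 0.153) and Socs3 (-1.13, SE 0.59, adjusted p = 0.162) did not pass the test. For Socs3 the order depended on the library: OBs of S1 and S2 had 0.00613 and 0.00479% beside 0.00190 and 0.00155% in other cells, whereas OBs of S5 to S8 had 0.00336 to 0.00428% beside 0.0154 to 0.0240%.

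The makeup of the other cells differed between libraries. Cells with at least 3 haematopoietic markers were 58.7% and 47.5% of other cells in S1 and S2 and 3.33 to 10.0% in the remaining 6 libraries, and cells with cartilage markers were 3.02 and 3.66% in S1 and S2 and 15.3 to 74.3% elsewhere. Their part in the difference between OBs and other cells was not tested beyond leaving cells out. Without S1, Fosb and Socs3 were also called lower in OBs, which made 9 of 10 members beside 19.6% of all genes, and without S2 all 10 members were, beside 21.1% of all genes.

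The third comparison asked which of these genes differed between Het and WT within each OB group. In mOBs, 1 of 9 members tested was lower in Het, Fos, and 0 were higher. Of 9623 genes tested, 0.26% were called lower and 0.665% in either direction. At an unadjusted p under 0.05 the count was 5 of 9 members, Fos, Zfp36, Fosb, Egr1 and Jun, beside 10.8% of all genes. Of the 9 members, 7 had a negative log2 fold change, with a median of -0.47 beside 0.01 over all genes tested. The median was -0.79 within kit 3 and -0.10 within kit 3.1, and -0.75 without S8. With cells carrying cartilage markers left out it was -0.72, with 8 of 9 negative. In that setting 7 of 9 members had an unadjusted p under 0.05, beside 1078 of 9529 genes.

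Fos made up 0.0292 and 0.0287% of mOB UMIs in WT S1 and S2 and 0.0129 and 0.0182% in Het S3 and S4. With kit 3.1 it made up 0.0141 and 0.0202% in WT S5 and S6 and 0.00530 and 0.00873% in Het S7 and S8. Both Het libraries lay below both WT libraries with each kit, but across kits the Het library S4 lay above the WT library S5. These levels rested on 58 (S8) to 970 (S6) Fos UMIs per library, from 42 to 299 cells. The mean was 0.0231% ± 0.00726 (SD, n = 4) in WT and 0.0113% ± 0.00556 (SD, n = 4) in Het.

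The log2 fold change of Fos in mOBs was -1.16 (SE 0.20, interval -1.55 to -0.77, adjusted p = 0.0339), and DESeq2 gave -1.17 with an adjusted p of 4.11e-05. In a fit to all 8 libraries with a genotype term for each kit, the edgeR value was -0.95 within kit 3 and -1.43 within kit 3.1. The adjusted p-values there were 0.0993 and 0.204. The call was lost without S1 (adjusted p = 0.125), S2 (0.113) or S3 (0.133), with log2 fold changes of -1.21, -1.21 and -1.10, and also with under 5% mitochondrial UMIs (0.0678), with the stricter OB selection (0.0816) and with no kit version in the model. Leaving out any 1 library moved the log2 fold change between -1.33 and -0.97.

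Fos was the only one of the 9 members with both Het libraries below both WT libraries in each kit version, which held for 3.15% of all genes tested in mOBs. After each cell was thinned to 2000 UMIs, 27.4 and 31.2% of WT mOBs in S1 and S2 and 15.2 and 17.7% of Het mOBs in S3 and S4 had a Fos UMI, and the shares were 18.2 and 15.9% in S5 and S6 and 5.77 and 19.5% in S7 and S8. By this measure Het lay below WT with kit 3, and the S8 share exceeded both WT shares with kit 3.1. Without thinning the 8 shares ran from 38.0 to 53.4%, at median depths of 12348 to 21116 UMIs per cell. Thinned shares in fibroblast-like cells were 4.08 to 22.2%, and since no cell group here is known to lack Fos, the share that comes from free RNA was not measured.

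Markers of blood cells moved with genotype in mOBs. Of the mOBs, 16.4 and 11.7% in WT S1 and S2 and 1.27 and 3.65% in Het S3 and S4 had at least 3 of 11 haematopoietic markers, and 0 to 0.334% did in S5 to S8. The summed level of the list was 0.000957 to 0.0671% in WT and 0.000150 to 0.0164% in Het, with 10 of 11 markers detected and Cd3e at 0. With OBs that carried at least 3 haematopoietic, endothelial, or smooth muscle or pericyte markers left out, Fos had a log2 fold change of -1.12 (adjusted p = 0.0458). With cells carrying cartilage markers left out, the Fos value was -1.40 (adjusted p = 0.0147). The 5 OB markers that took no part in the selection were 1.74 to 4.67% of UMIs in WT mOBs and 1.14 to 2.005% in Het mOBs, and their part in the result was not tested.

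**Figure D3:**
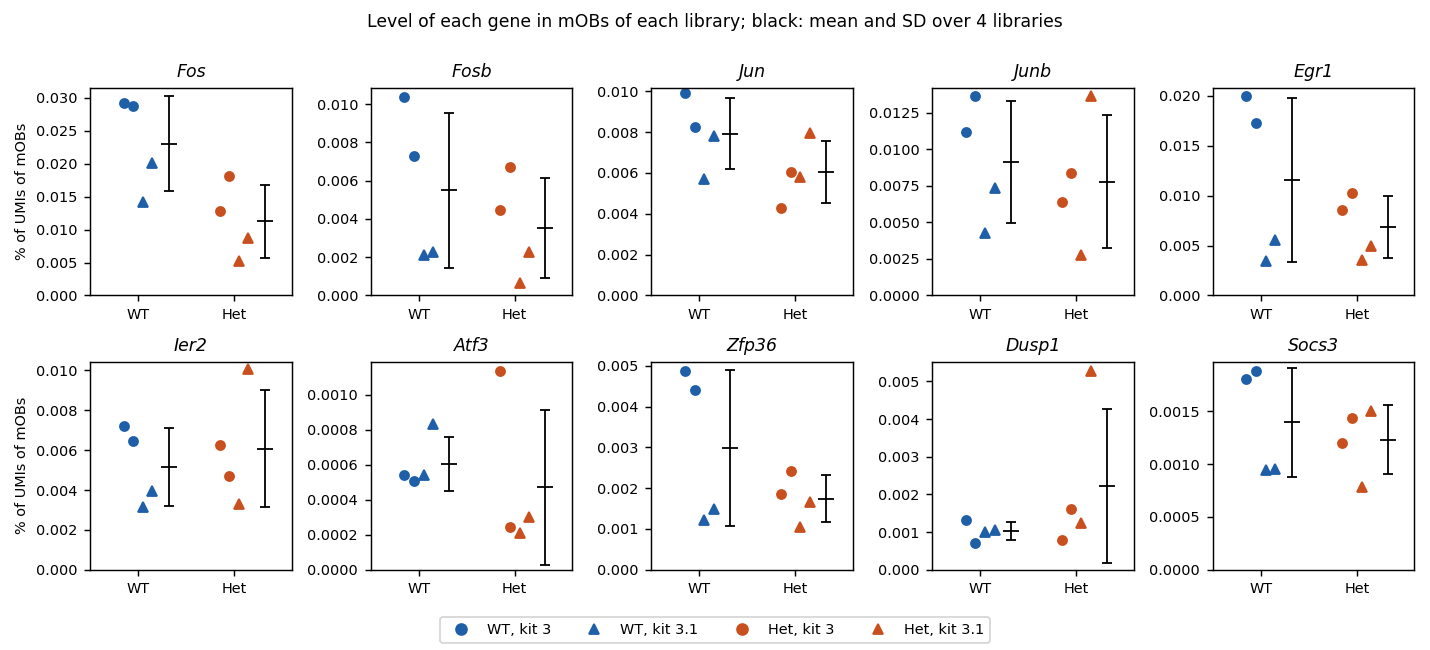
Level of each of the 10 genes in mOBs (% of UMIs) in the 4 WT and the 4 Het libraries, with 1 point per library shaped by kit version. Fos in Het lies below WT with each kit, from 0.00530 to 0.0182% against 0.0141 to 0.0292%, whereas the S8 library gives the highest Dusp1 and Ier2 values.

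Zfp36, which promotes mRNA decay, had 0.00486 and 0.00441% in WT S1 and S2, 0.00187 and 0.00241% in Het S3 and S4, 0.00122 and 0.00148% in WT S5 and S6, and 0.00104 and 0.00166% in Het S7 and S8. The separation of the genotypes was seen with kit 3 only. With that kit 8 of the 9 members tested, all but Dusp1, had both Het libraries below both WT libraries, beside 17.4% of all genes. Its log2 fold change was -0.82 (SE 0.22), which was lower at an unadjusted p of 0.00197 but not after adjustment (adjusted p = 0.120).

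For Egr1 the genotypes were likewise apart with kit 3 only, with 0.0200 and 0.0172% in the WT libraries S1 and S2 and only 0.00859 and 0.0103% in the Het libraries S3 and S4, and overlapping values of 0.00344 to 0.00560% in S5 to S8. The estimate was -0.71 on the log2 scale (SE 0.22, adjusted p = 0.257). Fosb had 0.0104 and 0.00731% in WT and 0.00446 and 0.00672% in Het with kit 3, and 0.00209 and 0.00225% in WT and 0.000676 and 0.00226% in Het with kit 3.1, a log2 fold change of -0.78 (SE 0.25, adjusted p = 0.251).

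Jun had a log2 fold change of -0.47 (SE 0.21, adjusted p = 0.430), Junb of -0.34 (SE 0.56) and Socs3 of -0.30 (SE 0.24). With 1 library left out, Jun ranged from -0.65 to -0.33, Junb from -0.94 to -0.07 and Socs3 from -0.49 to -0.22. Ier2 (0.10, SE 0.41) and Dusp1 (0.85, SE 0.53) had positive estimates, with intervals of -0.69 to 0.90 and -0.19 to 1.88. For Dusp1 the S8 level of 0.00527% stood above the 0.000723 to 0.00161% of the other 7 libraries. In S8, 1 cell of 42 held 167 of the 375 UMIs of the 10 genes, 24 of the 35 Dusp1 UMIs and 56 of the 91 Junb UMIs, and that cell had 5 cartilage markers. With cells carrying cartilage markers left out, Dusp1 in mOBs had a log2 fold change of 0.09, Junb of -0.72 and Ier2 of -0.27.

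In eOBs, 0 of 9 members were called between the genotypes, beside 0.0123% of 8118 genes. At an unadjusted p under 0.05 there were 4 of 9, all lower in Het (Socs3, Junb, Fos and Egr1), beside 3.47% of all genes. DESeq2 also called 0 members, beside 0.037% of all genes. Of the 9, 8 had negative log2 fold changes, with a median of -0.53, which ran from -0.26 without S7 to -1.05 without S8 and was -0.93 within kit 3. Cells with cartilage markers moved with genotype in kit 3.1 eOBs, at 53.7 and 34.0% in WT and 15.5 and 22.2% in Het. In kit 3 eOBs the order was the other way round, at 1.23 and 0% in WT and 13.6 and 8.70% in Het. Without these cells 1 of 9 members, Egr1, had an unadjusted p under 0.05, beside 3.71% of all genes, and the median was -0.60. With all eOBs, Socs3 had the smallest p-value, with 0.0115 and 0.0184% for WT with kit 3 (S1 and S2) and 0.00455 and 0.00637% for Het (S3 and S4), and 0.0162 and 0.0163% for WT with kit 3.1 (S5 and S6) and 0.00921 and 0.00863% for Het (S7 and S8). All 4 WT libraries lay above all 4 Het libraries for Socs3 with all eOBs, as for 0.53% of all genes tested. Within each kit the genotypes were ordered this way for 2 of 9 members, Socs3 and Junb, beside 1.87% of all genes. Without cells carrying cartilage markers the order in kit 3.1 turned, with 0.00370 and 0.00356% in WT and 0.00397 and 0.00680% in Het, while in kit 3 WT stayed higher (0.0117 and 0.0184% against 0.00310 and 0.00551%). The log2 fold change with all eOBs was -1.13 (SE 0.21), which did not pass the test over all genes (adjusted p = 0.249). It was -0.65 (SE 0.44) without those cells. Cells with at least 3 haematopoietic markers moved with genotype in kit 3 eOBs, at 13.6 and 13.0% in WT S1 and S2 and 4.55 and 0% in Het S3 and S4, against 0 to 3.45% in S5 to S8. The summed level of those markers was 0.00601 to 0.101% in WT eOBs and 0.000836 to 0.0308% in Het eOBs. Another setting left out OBs with at least 3 markers of the haematopoietic, endothelial, or smooth muscle or pericyte class, and did not consider cartilage markers. Socs3 in eOBs then had a log2 fold change of -1.59 (SE 0.31, adjusted p = 0.135).

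Among the other eOB values, Junb had a log2 fold change of -0.84 (SE 0.24), Fos of -0.80 (SE 0.28) and Egr1 of -0.64 (SE 0.28). Fos ranged from 0.0257 to 0.151% in WT and from 0.00931 to 0.139% in Het, since the kit 3.1 libraries were higher in both genotypes. Jun had a log2 fold change of 0.01 (SE 0.32). The eOB sums came from 22 to 95 cells per library.

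In dOBs, 0 of 10 members were called, beside 0.0% of 9857 genes, and 2 of 10 had an unadjusted p under 0.05, beside 7.22% of all genes. DESeq2 called 0 members, beside 0.0406% of all genes. The 2 members were Egr1 (-0.73, SE 0.21, adjusted p = 0.558) and Zfp36 (-0.59, SE 0.23, adjusted p = 0.645). All 10 log2 fold changes were negative, with a median of -0.30, but without S5 only 5 of 10 were negative and the median was -0.02, while without S6 it was -0.63, without S8 -0.57 and without S2 -0.46. Within kit 3 it was -0.50, with 7 of 10 negative. The median was -0.51 with cells carrying cartilage markers left out and -0.54 with the stricter OB selection. In these settings 3 of 9 and 4 of 10 members had an unadjusted p under 0.05, beside 696 of 9683 and 739 of 9163 genes. Egr1 had 0.0142 and 0.00919% for WT with kit 3 and 0.00510 and 0.00792% for Het, and 0.0119 and 0.00692% for WT with kit 3.1 and 0.00588 and 0.00684% for Het. The genotypes were ordered within each kit and overlapped across kits. Egr1 was the only 1 of 10 members so ordered, beside 3.27% of all genes. Cells with at least 3 haematopoietic markers were 16.9 and 6.06% of dOBs in WT S1 and S2, 0 and 2.94% in Het S3 and S4 and 0 to 2.58% in S5 to S8, with summed marker levels of 0.00511 to 0.0560% in WT and 0.00109 to 0.00988% in Het. An alternative left out OBs with at least 3 markers of the haematopoietic, endothelial, or smooth muscle or pericyte class. Egr1 in dOBs then had a log2 fold change of -0.83 (SE 0.24, adjusted p = 0.451). For Fos in dOBs the levels were 0.00599 to 0.0410% in WT and 0.0112 to 0.0244% in Het, with a log2 fold change of -0.26 (SE 0.34, interval -0.93 to 0.41).

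In all other cells together, 0 of 10 members were called between the genotypes, beside 0.0% of 16502 genes, and 0 of 10 had an unadjusted p under 0.05, beside 25.0% of all genes. DESeq2 also called 0 members but 11.8% of all genes, and 3 of 10 members had an unadjusted p under 0.05 there, beside 31.5% of all genes. In the edgeR fit, 6 of the 10 had negative estimates, with a median of -0.08 (-0.30 without S8 and 0.02 without S7), and these values depended on which cells were included. Without cells carrying cartilage markers, 6 of 10 members (Fos, Junb, Ier2, Atf3, Zfp36 and Dusp1, all lower in Het) had an unadjusted p under 0.05, beside 17.6% of all genes, with a median of -0.63 and 0 called. In haematopoietic-like cells alone Fos, Junb, Ier2, Atf3, Zfp36 and Dusp1 were also the 6 of 10 that did, beside 16.0% of all genes, with a median of -0.50 and 0 called, and in chondrocyte-like cells alone 0 did and the median was 0.37. Within kit 3, 6 of 10 members were called, a share near the 48.7% of all genes called there. Fosb (1.32), Jun (1.16), Socs3 (1.02) and Egr1 (0.92) were higher in Het, and Zfp36 (-1.53) and Dusp1 (-0.95) were lower. Within kit 3.1, 0 were called. The kit 3 libraries are those whose share of cells with at least 3 haematopoietic markers was 58.7 and 47.5% in WT and 7.72 and 10.0% in Het, as given above, so that genotype and makeup moved together there.

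In endothelial-like cells alone, 2 members were lower in Het, beside 0.68% of 10581 genes called lower. Junb had 0.0219, 0.0210, 0.0198 and 0.0145% in the 4 WT libraries and 0.0116, 0.0127, 0.0115 and 0.0129% in the 4 Het libraries, and the genotypes did not overlap. The estimate was -0.66 on the log2 scale (SE 0.11, adjusted p = 0.00198). Zfp36 had 0.00405, 0.00521, 0.00484 and 0.00299% in WT and 0.00179, 0.00217, 0.00248 and 0.00240% in Het, again without overlap, with a log2 fold change of -0.92 (SE 0.18, adjusted p = 0.0104). All 4 Het libraries lay below all 4 WT libraries for 3 of 10 members, Junb, Zfp36 and Socs3, beside 0.955% of all genes.

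Whether the genotype difference itself changed between cell groups was tested by an interaction term. Between mOBs and dOBs, 0 of 10 members were called, beside 0.0473% of 10580 genes. For Fos the difference of log2 fold changes was -1.06 (SE 0.47, adjusted p = 0.720), so that the Fos difference in mOBs was not shown to be particular to them. Between OBs and other cells, 0 of 10 were called, beside 0.0% of 15533 genes. The estimates with the smallest p-values there were Egr1 (-1.05, SE 0.33, adjusted p = 0.220) and Socs3 (-1.24, SE 0.47, adjusted p = 0.232). DESeq2 called 0 members in either interaction, beside 0.0662% and 1.66% of all genes, and gave Dusp1 and Atf3 no adjusted p in the first. Within kit 3, 3 of 10 (Egr1, Jun and Socs3) were called for OBs against other cells, a share near the 27.5% of all genes called there.

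The UMIs of these genes were spread unevenly over cells, to a degree that varied between libraries. In mOBs, 4.76 to 22.9% of cells had no UMI of any of the 10 genes, the median cell had 3 to 7, and the highest 10% of cells held 32.6 to 73.3% of the UMIs. In S6, 1 cell of 208 held 511 of 2475 UMIs (20.7%) and also had 5 cartilage markers. Across the 8 libraries, Jun was detected in 12.5 to 50% of thinned mOBs with a Fos UMI and in 2.99 to 18.2% of those without, and was the higher with Fos in 8 of 8 libraries. Fosb, Egr1 and Junb were the higher with Fos in 6 of 8 libraries and Dusp1 in 4 of 8. In other cells all 5 genes were the higher with Fos in 8 of 8 libraries, for example Junb in 51.4 to 79.0% with and 7.99 to 17.7% without.

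**Figure D4:**
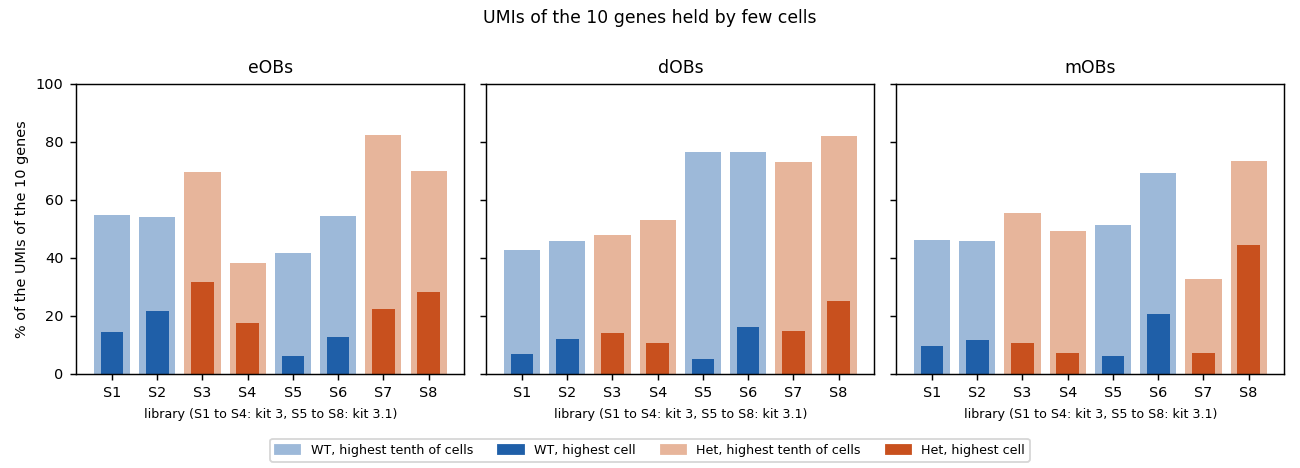
Percentage of the UMIs of the 10 genes held by the highest 10% of cells (wide bars) and by the single highest cell (narrow bars) in each library, for eOBs, dOBs and mOBs. In mOBs the single highest cell holds 44.5% in S8 and 20.7% in S6.

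Other genes of the same response were described by 6 lists: other AP-1 and small Maf subunits, other immediate early regulators, other feedback inhibitors, secreted and cytoplasmic early genes, heat shock genes of cell dissociation, and the kinases, receptors and factors upstream. Between Het and WT mOBs, 1 of 64 list genes tested was called (1.56%), beside 0.665% of all genes called in either direction. It was Zfp36l1, which encodes an mRNA decay factor of the Zfp36 family (log2 fold change -0.85, SE 0.15, adjusted p = 0.0215). Lifr, the leukemia inhibitory factor receptor, followed with -0.65 (SE 0.14, adjusted p = 0.0514). In eOBs, dOBs and other cells, 0 of 64, 67 and 95 list genes tested were called, beside 0.0123, 0.0 and 0.0% of all genes.

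The list counts from eOBs to mOBs stand beside 12.7% of all genes called lower and 14.8% higher. Of 12 tested feedback inhibitors, 6 were lower and 1 higher. Those lower included Dusp6, a phosphatase of ERK (-1.56, SE 0.21), Zfp36l2 (-1.44, SE 0.16) and Socs1 (-1.15, SE 0.20). Of 9 secreted and cytoplasmic early genes, 6 were lower, with Ctgf, a matrix-associated growth regulator, at -2.35 (SE 0.22) and Rhob, a small GTPase, at -1.56 (SE 0.32). Among other immediate early regulators 7 of 16 were lower and 2 higher, and among heat shock genes 5 of 7 were lower, with Dnajb1 at -1.57 (SE 0.37). Of 17 upstream genes 4 were lower and 0 higher, the 4 being the cytokine receptor subunits Il6st (-0.97, SE 0.12) and Osmr (-1.44, SE 0.25), the kinase gene Jak1 (-0.66, SE 0.13) and Srf (-0.54, SE 0.19). Among the other AP-1 and small Maf subunits 0 of 4 were called. The list medians ran from -1.56 for secreted and cytoplasmic genes to 0.10 for AP-1 subunits, beside -0.03 over all genes. These list counts were not computed again without the cells carrying cartilage markers.

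Between OBs and other cells, where 20.7% of all genes were called lower and 14.7% higher, 13 of 20 other immediate early regulators were lower and 2 higher, with Btg2, an antiproliferative gene, at -2.66 (SE 0.20) and the nuclear receptor gene Nr4a1 at -2.27 (SE 0.19). Lower calls were also made for 12 of 22 feedback inhibitors, 11 of 15 secreted and cytoplasmic early genes, 7 of 10 heat shock genes and 6 of 8 other AP-1 and small Maf subunits. Of 17 upstream genes, 2 were lower and 2 higher, neither above the share of all genes called, and one of the latter was Lifr (3.16, SE 0.19).

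Across the 24 sums of the 3 OB groups and 8 libraries, the likeness of each of 6635 genes with a mean of at least 20 normalized CPM to the mean of the members was measured by Pearson's r on log2 values, after the mean of each OB group and kit version had been removed. The 5 most alike were Prorsd1 (0.740), mt-Cytb (0.725), Chpf2 (0.721), Stat3 (0.719) and Pofut1 (0.718). Among the members, Junb was closest to the mean of the others (0.827), followed by Fosb (0.801), and Atf3 was the least alike (0.179). The 24 sums share libraries, so these values are a description.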

How the data were processed

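Single cells of parietal bone were measured in 8 libraries. The authors deposited UMI counts per gene and barcode, made with Cell Ranger 5.0.0 for S1 to S4 and 6.0.1 for S5 to S8 per the file headers, on mm10 per the submitters' processing notes; no normalization had been applied to these counts. Cells were kept and OBs chosen by the thresholds given above. Counts were summed per library and cell group, and groups with under 10 cells in a library were left out. The sums were fitted in edgeR 4.0.16 (R 4.3.3) across all genes passing filterByExpr, with TMM factors and the robust quasi-likelihood test. Genotype fits held genotype and kit version, and fits between cell groups held the library as a block. Values within a kit version come from fits to the libraries of both kits with a genotype term for each kit, so they share the spread of both. A gene was called at an adjusted p under 0.05, an SE is the absolute log2 fold change over the square root of F, and an interval is 1.96 SE to each side. Such an interval takes no account of the few degrees of freedom of the test, so it is narrower than a 95% interval. On counts simulated with changes larger than that of Fos in mOBs, the fit recovered 178 of 200 changed genes in the mOB design. Recovery of smaller changes, such as those of the members between the genotypes in mOBs, was not simulated. DESeq2 1.42.0 was an alternative.

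Replicates are libraries, each a pool of animals, and p-values measure the spread between these libraries. Doublets were not called. The alternative without OBs carrying markers of other classes left out those with at least 3 haematopoietic, endothelial, or smooth muscle or pericyte markers. Cartilage, fibroblast and erythroid markers took no part in it. The labels do not say whether their numbers pair Het with WT libraries. Correlations of deviations between libraries of the same number were -0.122 to 0.0752. With 2 libraries per genotype and kit, these values cannot show whether libraries were paired. Shares of cells used 2000 UMIs per cell, which left out 8703 cells. Promoter sequences are from RefSeq, GRCm38.p6, and gene positions from the matching annotation. The genes, the related lists and the OB thresholds were chosen with earlier results of these data known. Named genes were the 10 members, up to 4 called genes of each related list by p (or, with none called, the 2 with the lowest p), and the 5 genes most alike. The libraries were grouped by their genotype labels. Of the OB markers, 1 more is not reported here.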

Additional observations from a re-analysis of the deposited data

Results flagged for a closer look

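Among 60 groups of 4 libraries (10 genes, 3 OB groups and 2 genotypes), 3 held a library far from the other 3 by Dixon's test, where chance gives about 1 group in 20. Ier2 in Het dOBs was 0.0135% of UMIs in S8, against 0.00392 to 0.00555% in the others. Atf3 in WT mOBs was 0.000832% in S6, against 0.000506 to 0.000540%, and 34 of its 40 UMIs there were in 1 cell. Atf3 in Het mOBs was 0.00113% in S3, against 0.000208 to 0.000301%, and rested on 17 UMIs.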

How the results depend on the processing

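With 1 library left out at a time, the number of members called ranged from 0 to 2 between Het and WT mOBs (0.159 to 1.98% of all genes called), from 2 to 4 for mOBs against eOBs (10.0 to 11.7% called lower) and from 7 to 10 for OBs against other cells (17.7 to 21.1% called lower), and was 0 throughout in eOBs, dOBs, other cells and both interactions (at most 0.146% called). The count in mOBs, 1 as reported, was 6 of 10 with no filter on low counts (2.91% of all genes called) and 2 of 9 within kit 3 (4.02%), and it was 0 within kit 3.1 (0.052%), with no kit version in the model (0.0%), with under 5% mitochondrial UMIs (0.702%) and with the stricter OB selection (0.503%). In eOBs and dOBs, 0 as reported, it was 4 and 2 with no filter (0.795 and 1.39% of all genes) and 1 and 1 within kit 3 (1.59 and 0.639%). In other cells it was 6 of 10 within kit 3, where 48.7% of all genes were called, and 2 in endothelial-like cells alone (1.32%). For mOBs against eOBs, 3 as reported, it was 6 in DESeq2 (13.0% of all genes called lower), 6 with the looser OB selection (16.5%) and 5 without cells carrying cartilage markers (13.2%), but 2 of 10 with no filter (8.0%), 2 of 9 with the stricter OB selection (8.89%) and 2 of the 5 members tested in thinned cells (9.64%). For OBs against other cells, 7 as reported, it was 8 in DESeq2 (24.3% called lower) and with the looser OB selection (20.7%) and 9 in thinned cells (16.6%). The interaction counts, 0 as reported, were 1 for mOBs against dOBs with no filter (0.737%) and 3 of 10 for OBs against other cells within kit 3, where 27.5% of all genes were called. The causes were not tested.

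The replicate block pairs libraries by the number in their labels, although the labels do not say that these numbers are pairs. It left 1 member called in mOBs (Fos, -1.16, adjusted p = 0.00326), beside 0.426% of all genes, and 0 in eOBs, dOBs and other cells.

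Of 965 log2 fold changes of single members under the alternatives, 846 kept their sign and their side of the threshold, 38 newly passed it, 7 no longer passed it and 74 changed sign. In eOBs the sign turned for Dusp1 (0.023) and Ier2 (0.14) within kit 3, Dusp1 (0.46) with the looser OB selection, Dusp1 (0.46) and Jun (-0.86) with the stricter OB selection, Dusp1 (0.34) and Jun (-0.15) without cells carrying cartilage markers, Jun (-0.052) with no filter on low counts, Jun (-0.30) with no kit version in the model, Jun (-0.61) within kit 3.1, Jun (-0.011) with under 5% mitochondrial UMIs, Jun (-0.16) without OBs carrying markers of other classes, Jun (-0.36) with cells thinned to 2000 UMIs. In dOBs the sign turned for Atf3 (0.22) in DESeq2, Atf3 (2.22), Dusp1 (0.17) and Fos (0.086) within kit 3, Atf3 (0.11) with the looser OB selection, Ier2 (0.11) within kit 3.1, Junb (0.029) with cells thinned to 2000 UMIs. In mOBs the sign turned for Ier2 (-0.41) within kit 3, Ier2 (-0.27) without cells carrying cartilage markers, Junb (0.16) within kit 3.1. In other cells the sign turned for Atf3 (0.10) and Ier2 (0.14) with no kit version in the model, Atf3 (0.22), Fos (0.033), Ier2 (0.28), Junb (0.17), Socs3 (-0.039) and Zfp36 (0.029) within kit 3.1, Atf3 (0.97), Egr1 (-0.54), Fosb (-0.49), Ier2 (0.029) and Jun (-0.18) in fibroblast-like cells, Dusp1 (0.38), Egr1 (-0.33), Fosb (-0.88), Jun (-0.49) and Socs3 (-0.49) in endothelial-like cells, Egr1 (-0.038) and Fosb (-0.21) in haematopoietic-like cells, Fos (0.64), Ier2 (0.74), Junb (0.69) and Zfp36 (0.17) in chondrocyte-like cells, Fosb (-0.033) without cells carrying cartilage markers. For the interaction of genotype with mOBs against dOBs the sign turned for Atf3 (0.053) and Junb (0.066) with no kit version in the model, Dusp1 (-0.12), Egr1 (-0.21) and Zfp36 (-0.14) within kit 3, Dusp1 (-0.028), Egr1 (-0.33) and Zfp36 (-0.18) without cells carrying cartilage markers, Egr1 (-0.34) and Zfp36 (-0.25) with the looser OB selection, Jun (0.17) and Junb (0.090) within kit 3.1, Junb (0.28) with under 5% mitochondrial UMIs, Junb (0.13) with the stricter OB selection, Junb (0.015) without OBs carrying markers of other classes, Junb (0.14) with cells thinned to 2000 UMIs. For the interaction with OBs against other cells the sign turned for Atf3 (0.19) in DESeq2, Atf3 (0.0057) with no kit version in the model, Atf3 (1.24) within kit 3, Atf3 (0.088) with the looser OB selection, Atf3 (0.16) with the stricter OB selection, Atf3 (0.92), Ier2 (0.37) and Junb (0.22) without cells carrying cartilage markers, Junb (0.030) with cells thinned to 2000 UMIs, Zfp36 (-0.019) within kit 3.1. With 1 library left out, the range crossed zero for Dusp1 (-1.01 to 0.17) and Jun (-0.30 to 0.28) in eOBs, Atf3 (-0.82 to 0.84), Dusp1 (-0.46 to 0.57), Fos (-0.45 to 0.066), Fosb (-0.85 to 0.12), Ier2 (-0.63 to 0.063) and Jun (-0.46 to 0.0050) in dOBs, Ier2 (-0.35 to 0.32) in mOBs, Ier2 (-0.25 to 0.046) in other cells, Egr1 (-0.29 to 0.35), Jun (-0.57 to 0.028), Junb (-0.53 to 0.46) and Zfp36 (-0.23 to 0.34) for mOBs against dOBs, Atf3 (-0.62 to 0.45), Ier2 (-0.37 to 0.11) and Zfp36 (-0.0069 to 0.47) for OBs against other cells.

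Levels per library changed by less than the spread in 156 of 160 cases, while 69 of 80 shares of cells with a UMI moved when cells were not thinned. Depth limited Atf3, which was not tested in eOBs or mOBs, and the sums of eOBs, which came from as few as 22 cells. Leaving out cells with cartilage markers was chosen after the data were seen.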

Other observations

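Haematopoietic-like cells alone had Ier2 (-0.67), Zfp36 (-0.61) and Dusp1 (-0.70) as the members with the smallest p-values between Het and WT, with adjusted p-values of 0.0556, 0.0556 and 0.0779, none past the threshold. Fos made up 0.0823 to 0.148% of UMIs in these cells and was detected in 57.3 to 74.4% of them after thinning to 2000 UMIs, without a clear split by kit version (57.9 to 62.2% with kit 3 and 57.3 to 74.4% with kit 3.1). In chondrocyte-like cells Fos made up 0.0237 to 0.316% of UMIs, with detection in 18.8 to 46.2% of thinned cells with kit 3 and 61.3 to 77.1% with kit 3.1. In endothelial-like cells it made up 0.00584 to 0.0318%.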
